A study of Mus musculus with 6 samples.

Results

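The genes described here are 10 genes of smooth muscle, 9 of which encode parts of the contractile apparatus and 1 of which, Myocd, encodes the transcriptional coactivator that switches them on. They were chosen by name from the 21950 gene symbols measured, each had exactly 1 probe set, and no cut on measured values was part of the rule, although earlier results of these data were known when they were listed. RNA from whole lungs of mouse embryos at E14.5 was hybridised to 6 arrays. The 3 control embryos carried Shh-cre, and the 3 mutant embryos carried Shh-cre with floxed Foxp1 and Foxp4 on both alleles (Shh-cre:Foxp1flox/flox:Foxp4flox/flox). All 6 shared a mixed background labelled C57BL/6 and 129X1,129S1. Shh-cre acts in the epithelium of the developing airways. Smooth muscle arises from the mesenchyme around them, so it is not where the genotype is meant to delete the 2 forkhead factors. The comparison therefore asks how genes of the neighbouring muscle stood in lungs meant to lack Foxp1 and Foxp4 in the epithelium.

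Smooth muscle contracts when calcium and calmodulin activate myosin light chain kinase, which phosphorylates the regulatory light chain and lets smooth muscle myosin pull on actin filaments. Its contractile genes share a regulatory element, the CArG box, which binds serum response factor, and myocardin drives them by joining serum response factor there. In the embryonic lung a sleeve of smooth muscle forms around the growing airways under signals from epithelium and mesothelium, and the walls of the pulmonary vessels hold the same contractile proteins. Whole lung RNA does not separate airway from vascular smooth muscle, so the values below belong to both, and in such bulk samples fewer smooth muscle cells and less RNA per cell cannot be told apart.

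A CArG box was found in the promoter window of Myl9 and stretches like it in that of Acta2, and both are shown because this element is the best known common feature of contractile genes. A window from 250 bases before to 50 bases after the annotated start was present in the RefSeq promoters (build GRCm38.p6) for 6 of the 10 genes, and Tagln, Myh11, Actg2 and Myocd had no entry. The window was searched for the CArG box, which reads the same way on both strands in this form, and for CArG-like stretches in which 1 base of its central A and T run is another base. Myl9 held 1 CArG box starting at -161 and 1 CArG-like stretch at -99, and Acta2 held 2 CArG-like stretches, at -84 and -34. Cnn1, Lmod1, Mylk and Des held none in this window. Of all 32851 windows there, 1.63% held a CArG box and 9.98% held a CArG box or a CArG-like stretch. The sequences below are the 250 bases before the start, 5′ to 3′ on the gene's strand, with these stretches in capitals.
Acta2, chr19:34255374-34255623, minus strand: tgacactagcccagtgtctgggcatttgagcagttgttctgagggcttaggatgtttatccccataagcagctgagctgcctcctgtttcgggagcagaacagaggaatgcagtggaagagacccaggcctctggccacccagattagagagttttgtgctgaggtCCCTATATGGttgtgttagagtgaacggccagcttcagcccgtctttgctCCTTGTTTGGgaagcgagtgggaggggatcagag
Myl9, chr2:156775214-156775463, plus strand: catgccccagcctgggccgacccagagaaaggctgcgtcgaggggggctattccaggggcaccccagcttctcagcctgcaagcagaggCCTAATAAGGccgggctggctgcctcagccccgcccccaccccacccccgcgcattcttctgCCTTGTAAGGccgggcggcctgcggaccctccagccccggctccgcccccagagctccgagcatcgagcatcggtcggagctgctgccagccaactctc

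The deposited values are log2 expression made by the authors with RMA, and the medians of the 6 arrays lay between 8.21 and 8.23. The targeted gene Foxp4 fell in mutants (log2 difference -0.41, limma adjusted p = 0.0190), while Foxp1 had a log2 difference of -0.27 that did not pass (limma adjusted p = 0.0884). Both differences have the direction of the genotype labels, but neither measures how complete the deletion was. Whole lung holds cells without Shh-cre, and the probe sets may lie outside the deleted exons. Control 3 stood apart in Xist, at 12.83 against 6.00 to 6.23 on the other 5 arrays, and in the Y-linked Ddx3y, at 5.89 against 9.45 to 10.64. The labels give no sex. Such values are those of a female lung in control 3 and of male lungs on the other 5 arrays. Sex was thus mixed among the controls and not among the mutants, and fits without control 3 are given below.

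None of the 10 genes passed the test of mutant against control. At an adjusted p under 0.05 (limma, Benjamini-Hochberg over all 28815 probe sets, 2-sided) 0 of 10 rose and 0 of 10 fell, and 1 of 10, Actg2, had an unadjusted p under 0.05. Over all probe sets 0.774% were called, 0.514% higher and 0.26% lower, and 11.8% had an unadjusted p under 0.05. At so small a share a count of 0 among 10 genes is no result about these genes, and the intervals carry the information. The 95% intervals of the differences reached 0.10 to 0.21 on the log2 scale to either side of the estimate. For 3 genes the mutant and control values did not overlap, Actg2 and Myocd higher and Des lower in mutants, against 18% of all probe sets (7.83% higher and 10.1% lower).

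**Figure D1:**
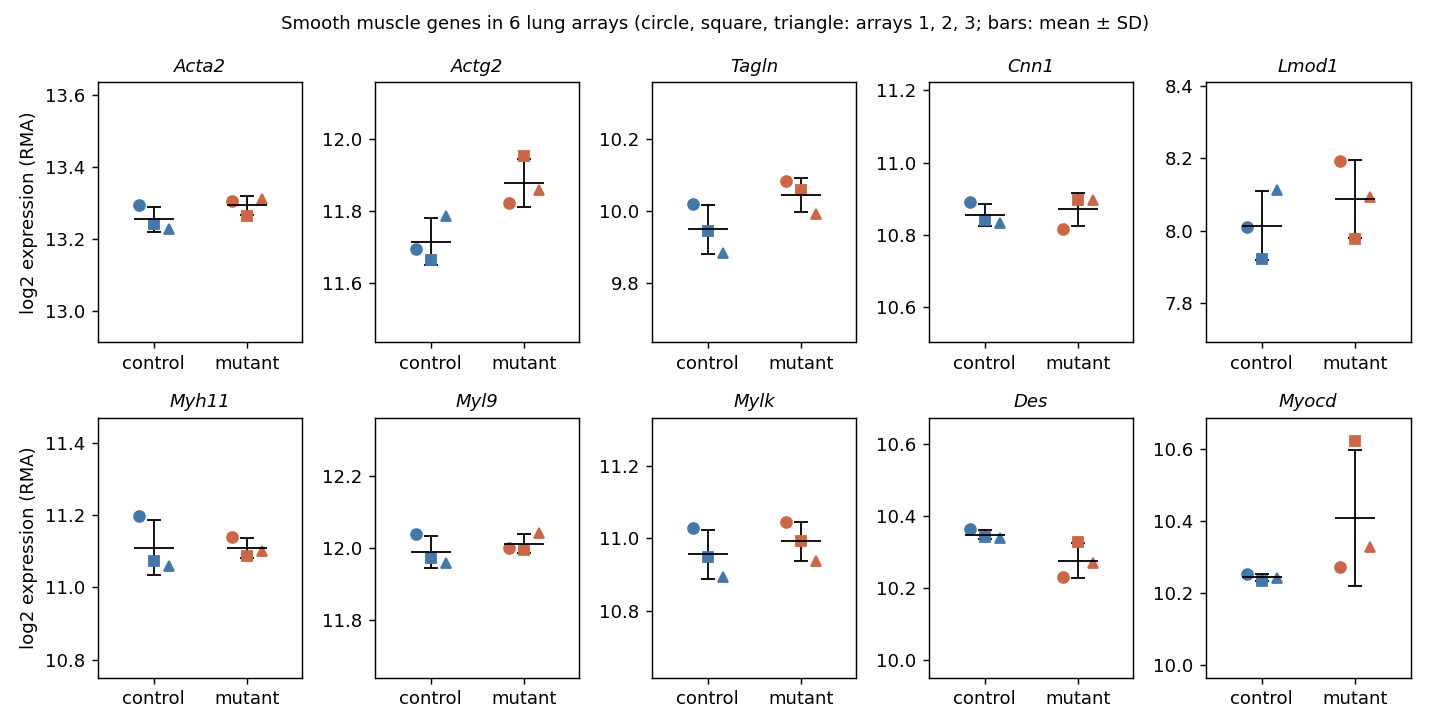
Log2 expression (RMA) of the 10 smooth muscle genes in 3 control (blue) and 3 mutant (orange) lungs, with mean ± SD in black; every panel spans the same height on the log2 scale but has its own position. Control and mutant values lie apart for Actg2, Myocd and Des and overlap for the other genes, and mutant 2 stands above the rest for Myocd.

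Among genes of the thin filament, Acta2 encodes smooth muscle alpha-actin, the standard marker of the lineage. Acta2 measured 13.29, 13.24 and 13.23 in controls 1 to 3 and 13.31, 13.26 and 13.31 in mutants 1 to 3. The groups overlapped, with control 1 above mutant 2. The mean was 13.26 ± 0.03 in controls and 13.29 ± 0.03 in mutants (mean ± SD on the log2 scale, 3 lungs per group, n = 3), and the log2 difference was 0.039 (SE 0.044, limma adjusted p = 0.756). On the linear scale this is 2.73% more in mutants, with a 95% interval from -4.33% to 10.3%, and larger changes of Acta2 in either direction lie outside it.

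Actg2 encodes smooth muscle gamma-actin, the form abundant in muscle of the gut and other viscera. Actg2 measured 11.69, 11.66 and 11.79 in controls and 11.82, 11.95 and 11.86 in mutants. Each mutant lay above every control, though mutant 1 exceeded control 3 only narrowly. The log2 difference was 0.16 (SE 0.06, 95% interval 0.03 to 0.29), or 1.12-fold, with an unadjusted p of 0.0213 and an adjusted p of 0.326 (limma). An exact permutation test gave p = 0.1, which is as small as groups of 3 and 3 permit. Actg2 passed in 1 of the 14 alternative fits, that with array weights (log2 difference 0.21, limma adjusted p = 0.0337), in which 1748 probe sets passed against 223 here. The 2 smooth muscle actins are closely related in sequence, and cross-hybridisation between their probe sets was not tested.

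Tagln encodes transgelin (SM22 alpha), an actin-bundling protein, and is among the earliest genes of the lineage. Tagln measured 10.02, 9.94 and 9.88 in controls and 10.08, 10.06 and 9.99 in mutants. The groups overlapped through control 1, which lay above mutant 3. The log2 difference was 0.095 (SE 0.053, limma adjusted p = 0.523).

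Cnn1, calponin, binds actin and restrains the myosin motor, and its product marks mature smooth muscle. Cnn1 measured 10.89, 10.84 and 10.83 in controls and 10.82, 10.90 and 10.90 in mutants. Mutant 1 was the lowest of the 6 and the other mutants were the highest, and the log2 difference was 0.016 (SE 0.047, limma adjusted p = 0.910). Lmod1, leiomodin, starts new actin filaments in smooth muscle. Lmod1 measured 8.01, 7.92 and 8.11 in controls and 8.19, 7.98 and 8.09 in mutants. The arrays of both groups were interleaved, and the log2 difference was 0.074 (SE 0.072, limma adjusted p = 0.715). All 5 thin filament genes had a difference above 0, from 0.016 to 0.16, and none of them passed.

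Among genes of the thick filament and its control, Myh11 encodes the heavy chain of smooth muscle myosin, the most lineage-restricted of the contractile proteins. Myh11 measured 11.20, 11.07 and 11.06 in controls and 11.14, 11.09 and 11.10 in mutants. The 3 mutants lay inside the range of the controls, and the means were 11.11 in each group. The log2 difference was -0.000767 (SE 0.053, 95% interval -0.12 to 0.12, limma adjusted p = 0.996), and its sign turned in 7 of the 14 alternative fits, so it has no direction.

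Myl9 encodes the regulatory light chain that myosin light chain kinase phosphorylates. Myl9 measured 12.04, 11.97 and 11.96 in controls and 12.00, 12.00 and 12.04 in mutants, with control 1 near the highest mutant. Its log2 difference was 0.023 (SE 0.046, limma adjusted p = 0.865). Mylk encodes that kinase, whose gene also makes a longer form in other cells, including endothelium. Mylk measured 11.03, 10.95 and 10.89 in controls and 11.05, 10.99 and 10.94 in mutants, with the groups again overlapping. Its log2 difference was 0.036 (SE 0.054, limma adjusted p = 0.819).

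Des encodes desmin, the intermediate filament that ties the contractile units together in every kind of muscle. Des measured 10.36, 10.34 and 10.34 in controls and 10.23, 10.33 and 10.27 in mutants. The controls lay close together and all 3 mutants lay below them, mutant 2 by the least. The log2 difference was -0.072 (SE 0.046, 95% interval -0.18 to 0.034, limma adjusted p = 0.569), a linear change of -4.88%, and the exact permutation p was again 0.1. Des was the 1 contractile gene besides Myh11 with a difference below 0, and it remained below 0 in all 14 alternative fits.

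Myocd, the coactivator upstream of the other 9 genes, had the widest spread. Myocd measured 10.25, 10.23 and 10.24 in controls and 10.27, 10.62 and 10.33 in mutants. The controls differed from each other by less than any mutant differed from mutant 2, which stood far above the rest. The mean was 10.24 ± 0.01 in controls and 10.41 ± 0.19 in mutants, and the log2 difference was 0.16 (SE 0.09, 95% interval -0.042 to 0.37, limma adjusted p = 0.511, exact permutation p = 0.1). Without mutant 2 the difference was 0.056 (limma adjusted p = 0.799). Of the 3 mutants, mutant 2 was also the highest for Actg2 and Des and, level with mutant 3, for Cnn1, while it was the lowest for Acta2, Myh11, Lmod1 and Myl9.

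**Figure D2:**
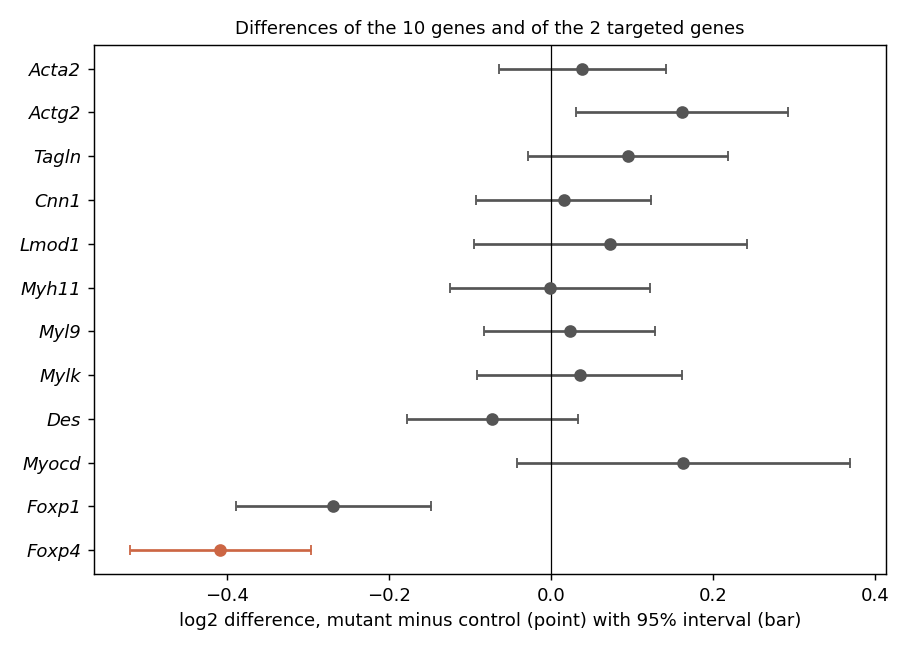
Log2 difference, mutant minus control, with its 95% interval (limma) for the 10 smooth muscle genes and the targeted genes Foxp1 and Foxp4; orange marks an adjusted p under 0.05. Among the smooth muscle genes the interval of Actg2 alone leaves out 0, and Foxp4 is the 1 gene drawn that passed after adjustment.

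In the authors' deposited table, whose test is not stated, none of the 10 genes had a q under 5% either. The lowest q in the authors' deposited table was that of Actg2, at 18.8% with a fold of 1.12, followed by Des at 31.7% with a signed fold of -1.05. The remaining 8 had a q of 59.3% to 66.3% there.

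As a group the 10 genes lay slightly higher in mutants, with 8 of 10 differences above 0 and a median of 0.037 on the log2 scale. Over all probe sets 41.6% of differences were above 0 and the median was -0.018. Without control 3 the log2 difference was 0.0037 for Mylk, 0.0071 for Myl9, 0.0054 for Cnn1, 0.026 for Acta2, 0.062 for Tagln and -0.026 for Myh11, each lower than with it, while Lmod1 stood at 0.12 and Actg2 at 0.20, each higher. Des and Myocd moved by less than 0.01, and 0 of the 10 genes passed without control 3 (limma). The median over the 10 genes was 0.016 without control 3 and 0.065 without control 1, and these 2 values bound the fits that leave out 1 array. The median size of a difference, without its sign, was 0.056 for the 10 genes and 0.060 for all probe sets.

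The variation between lungs of 1 group was small for most of the genes and was partly shared. The residual SD ran from 0.030 for Acta2 to 0.13 for Myocd, against a median of 0.075 over all probe sets, dim ones included. Most of the 10 genes were bright, and probe sets of like brightness were not compared. Within the controls, control 1 was the highest array for 8 of the 10 genes, all but Actg2 and Lmod1, and control 3 was the lowest for 7. Averaged over the 10 genes after subtracting each gene's own mean, controls 1 to 3 stood at 0.0088, -0.052 and -0.037 and mutants 1 to 3 at 0.021, 0.047 and 0.012. These averages did not overlap between the groups, whereas the medians over the same genes did, control 1 at 0.025 lying above mutant 2 at 0.017 and mutant 3 at 0.019.

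**Figure D3:**
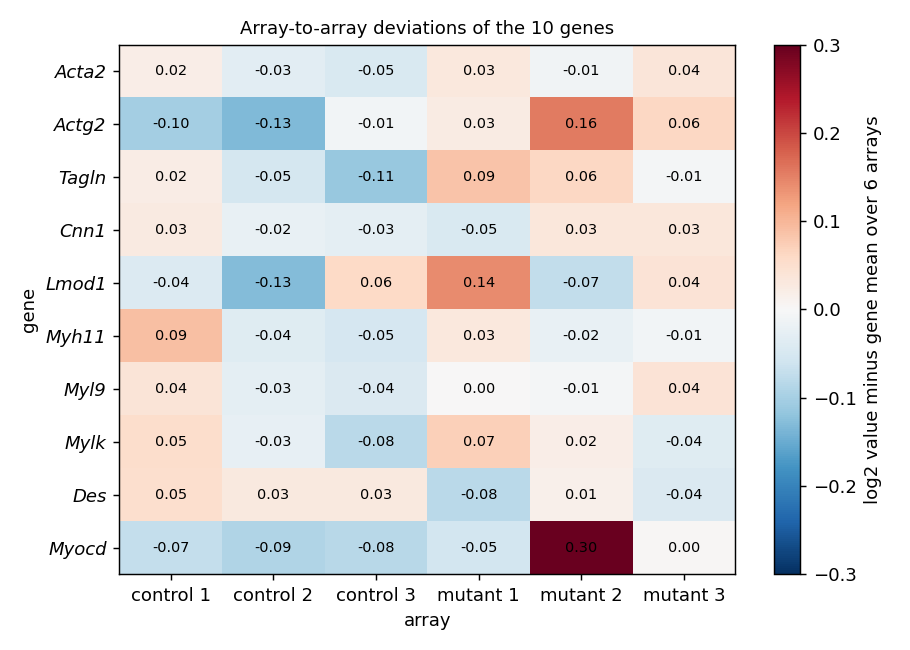
Log2 value of each smooth muscle gene (rows) on each of the 6 arrays (columns) minus that gene's mean over the arrays, with the value printed in each cell. The column of control 1 is above 0 for most genes and that of control 2 below 0 for most, and the cell of Myocd in mutant 2, at 0.30, is the highest in the plot.

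The 10 other genes whose centred values over the 6 arrays came closest to this average were Spef2, Senp7, Vmn2r33, Cers2, Wdr7, Bnip3l, Dclre1b, Sec22b, Bgn and Slc66a1. Their root mean square distances from it ran from 0.0086 for Spef2 to 0.015 for Slc66a1 on the log2 scale. Of 23217 other probe sets that varied at least as much as the average, 180 lay closer to it than Acta2, the closest of the 10 smooth muscle genes at 0.028. With 6 arrays from 2 groups such closeness is a description of these arrays and picks out no smooth muscle pattern.

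A wider list of 47 partners of the contractile apparatus also held no gene that passed (limma; 0 rose, 0 fell). Of the 47, 5 had an unadjusted p under 0.05, against 11.8% of all probe sets. There were 24 differences above 0 and 23 below 0, with a median of 0.0055. The smallest p belonged to Chrm3, the muscarinic receptor through which acetylcholine contracts airway muscle. Chrm3 measured 8.46, 8.28 and 8.43 in controls and 8.73, 8.91 and 8.65 in mutants. Every mutant lay above every control, and the log2 difference was 0.37 (SE 0.08, 95% interval 0.19 to 0.56, limma adjusted p = 0.121), larger than that of any of the 10 contractile genes.

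Chrm2, the other main muscarinic receptor of airway smooth muscle, which opposes relaxation by lowering cyclic AMP, differed the other way. Chrm2 measured 8.88, 8.83 and 8.74 in controls and 8.72, 8.53 and 8.53 in mutants. All mutants lay below the controls, mutant 1 only just, with a log2 difference of -0.22 (SE 0.07, limma adjusted p = 0.265). With array weights 3 of the 47 passed, Chrm3 (adjusted p = 0.0115), Chrm2 (adjusted p = 0.0317) and the LIM domain protein gene Fhl2 (adjusted p = 0.0445), in a fit that called 6.07% of all probe sets, so this count is near the background share. Both receptors are also made outside smooth muscle, by nerve and epithelium among others.

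The other partners with the smallest p were Pgm5, a phosphoglucomutase-related protein of muscle adhesion sites (log2 difference -0.20, limma adjusted p = 0.216), Fhl2 (-0.14, limma adjusted p = 0.297) and Itpr1, a channel that releases calcium from internal stores (0.13, limma adjusted p = 0.378). Dimmer second probe sets of Pgm5 and Itpr1 gave log2 differences of -0.098 and 0.015. The 7 other thin filament genes, among them the tropomyosins Tpm1 and Tpm2 and caldesmon (Cald1), ran from -0.073 to 0.061. The 8 genes of the thick filament and its phosphatase had differences of -0.070 to 0.12.

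Among regulators of smooth muscle 0 of 29 passed (limma; 3 with an unadjusted p under 0.05, against 11.8% of all probe sets). Of the 29, 13 were above 0 and 16 below 0, with a median of -0.0066. Srf, serum response factor itself, measured 10.69, 10.72 and 10.72 in controls and 10.62, 10.65 and 10.73 in mutants, with overlapping groups and a log2 difference of -0.044 (limma adjusted p = 0.739). Its actin-sensing cofactors Mrtfa and Mrtfb had log2 differences of 0.0051 (limma adjusted p = 0.973) and 0.029 (limma adjusted p = 0.858). The lowest p in the list were those of Msc, a basic helix-loop-helix repressor (-0.16, limma adjusted p = 0.326), the growth factor Tgfb1 (-0.13, limma adjusted p = 0.404) and Hey1, a Notch effector that can repress myocardin-driven genes (0.15, limma adjusted p = 0.408). A dimmer second Msc probe set had a log2 difference of 0.0016. Next were the matrix protein Tnc (-0.21, limma adjusted p = 0.480) and Bmp4 (-0.11, limma adjusted p = 0.502). Shh, the epithelial ligand that induces airway smooth muscle and whose locus drives the Cre, had a log2 difference of 0.053 (limma adjusted p = 0.693).

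**Figure D4:**
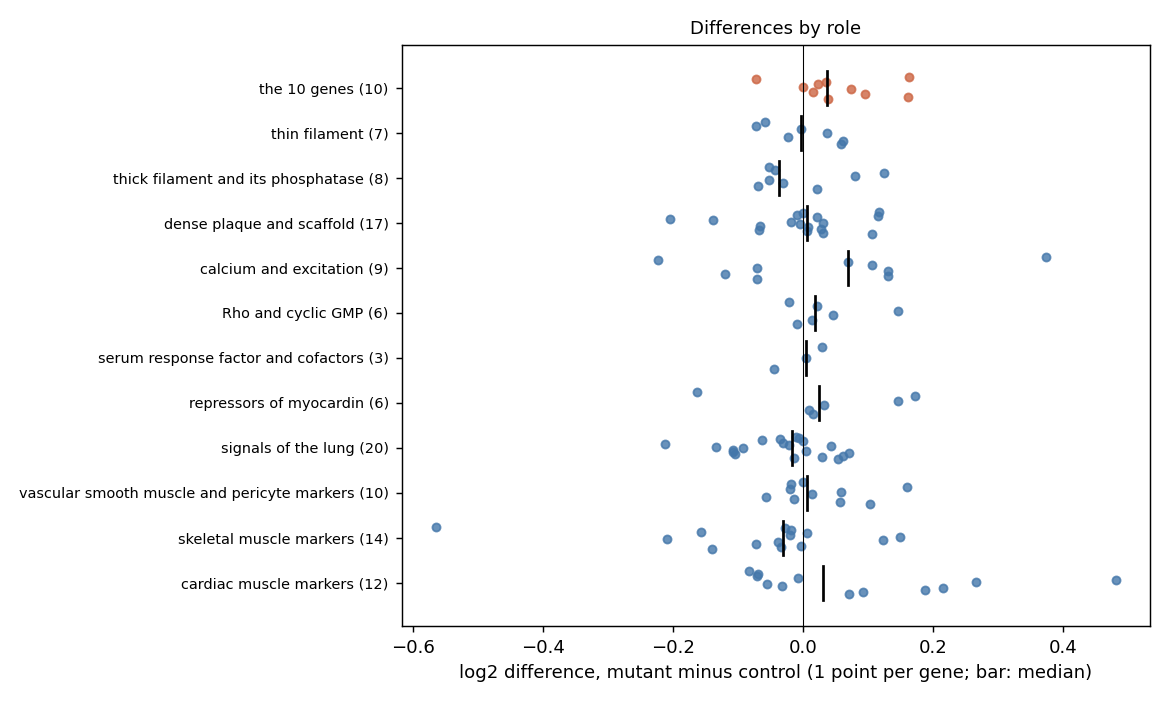
Log2 difference, mutant minus control, of each gene (points) in the 10 smooth muscle genes (orange) and in the wider lists by role (blue), with the number of genes in brackets and the median as a black bar. The medians lie near 0 in every row, and Chrm3 is the point at 0.37 among the calcium and excitation genes.

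Markers of other muscle and vessel wall cells were measured beside these genes. Of 10 markers of vascular smooth muscle and pericytes none passed (limma; 0 also with an unadjusted p under 0.05), 5 were above 0, and Notch3 and Pdgfrb had log2 differences of 0.10 and -0.000733. Of 14 skeletal muscle markers none passed (limma; 3 with an unadjusted p under 0.05, against 11.8% of all probe sets). Of these markers 11 were below 0 and 3 above, against 41.6% of all probe sets above 0. The 3 with an unadjusted p under 0.05 were the myogenic factor Myod1 at -0.14, the light chain Myl1 at -0.56 and Tnni2 at -0.16 (limma adjusted p = 0.327, 0.312 and 0.422). Myod1 and Myl1 were dim, with means of 7.56 and 6.66, and Tnni2 had a mean of 8.24. Myog and Myf5 stood at -0.0026 and -0.034. The 3 above 0 were Actc1, Myh8 and Tnni1, with log2 differences of 0.12, 0.15 and 0.0060. Actc1, the brightest of the list at 11.89, encodes cardiac actin and is not particular to skeletal muscle. Of 12 cardiac markers none passed (limma; 0 with an unadjusted p under 0.05) and 6 were above 0, with the atrial light chain Myl7 at 0.48 (limma adjusted p = 0.470). Desmin is made by these muscles too, and their part in its value was not tested.

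The balance of epithelium and mesenchyme bears on any mesenchymal gene in whole lung. Of 10 epithelial markers, which include Nkx2-1 and Sftpc and thus check the tissue label, 8 were above 0. None passed (limma; 2 with an unadjusted p under 0.05). Their summed level was 15.02 to 15.16 in controls and 15.18 to 15.23 in mutants (log2 of the sum). Bright genes weigh most in such a sum, and Sftpc, at 12.68 in controls, had the largest difference, 0.38 (limma adjusted p = 0.212). The general epithelial markers Epcam and Cdh1 were the 2 below 0, at -0.081 and -0.065. Of 10 mesenchymal markers 9 were below 0 and none passed (limma; 3 with an unadjusted p under 0.05). Over all probe sets 41.6% of differences were above 0 and 11.8% had an unadjusted p under 0.05. The sums were 15.36 to 15.38 in controls and 15.25 to 15.36 in mutants. Those 3 markers were collagen genes, Col1a1 at -0.28 (limma adjusted p = 0.294), Col1a2 at -0.18 and Col3a1 at -0.18. Tcf21, Tbx5, Pdgfra and Tbx4 ran from -0.035 to -0.0029. Foxf1 stood at -0.064, Wnt2 at -0.11 and Dcn at 0.061. Smooth muscle is itself a mesenchymal tissue, and 8 of the 10 genes described here lay above 0. Among 8 endothelial and 8 blood markers, of which Hbb-bt and Hbb-b1 rest on 1 shared probe set, none passed (limma; 0 and 1 with an unadjusted p under 0.05). Among 8 markers of tracheal cartilage, the tissue beside the airway muscle, 7 were below 0 and 6 had an unadjusted p under 0.05, the same 6 whose mutant values all lay below the controls, against 11.8% and 10.1% of all probe sets. After adjustment 1 fell, Cnmd, a cartilage glycoprotein gene (log2 difference -0.67, limma adjusted p = 0.0127). The others of these 6, Matn1, Matn3, Acan, Comp and Col9a1, were dim, with means of 6.40 to 8.16, below the array medians. Col2a1, brighter at 9.47, had overlapping groups and a log2 difference of -0.037 (limma adjusted p = 0.885). Sox9, listed under cartilage as well as epithelium, stood at 0.044. Among 7 mesothelial markers 6 were below 0, and Upk1b lay above 0, at 0.076. Of the 7, 2 had an unadjusted p under 0.05, against 11.8% of all probe sets. After adjustment 1 fell, Krt19 (log2 difference -0.42, limma adjusted p = 0.0382), a keratin that airway epithelium also makes. The other, Aldh1a2, did not pass (log2 difference -0.34, limma adjusted p = 0.215). The part of these shifts in the smooth muscle values was not tested.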

How the data were processed

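Gene expression was measured in whole lungs on 6 arrays, 3 per group. Per the labels' protocols, total RNA was reverse transcribed from a poly(T) primer, amplified by in vitro transcription and biotinylated. The deposited log2 values were made with RMA, per the submitters' processing notes. No array type, genome build or software version is stated there. The authors' deposited table also holds a signed fold, a difference score, a q-value in percent and a p-value, per the file headers, whose test is not stated.

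The 6 array columns held identical values in both deposited tables for all 28815 probe sets. Symbols were updated through RefSeq (GRCm38.p6), and a gene with several probe sets took that with the highest mean. Differences (mutant minus control) were fitted with limma 3.58.1 in R 4.3.3 (lmFit, eBayes, 2-sided, no covariate, no filter), adjusted over all probe sets at a threshold of 0.05, and the fit was tested on simulated data. The 2-sided exact permutation test used 3 against 3 values. Per the design text the samples are separate embryos. The 3 arrays per group limit the precision, and no batch is labelled.

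The 10 genes and the wider lists were chosen with earlier results of these data known. Named from the wider lists were genes that passed, the 5 with the smallest p, Srf and its cofactors, and genes that show a cell type; Shh, Tpm1, Tpm2 and Cald1 were added after their values were seen. The 10 genes closest to the average of the members were named by root mean square distance, predicted genes left out. Alternative fits used the replicate number as block, a trended robust prior, a filter at the 30th percentile, 3 normalizations, array weights, 1 probe set per symbol and leaving out each array. Figures used matplotlib 3.10.9.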

Additional observations from a re-analysis of the deposited data

How the results depend on the processing

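The count of 0 of 10 smooth muscle genes was the same in 13 of 14 alternative fits and at an adjusted p under 0.1, and was 1 with array weights, where the estimation of the weights stopped before its tolerance was reached. With array weights 3 of the 47 contractile partners passed, against 0 otherwise, and 0 of the 29 regulators. The number of probe sets called, 223, became 360 at an adjusted p under 0.1 and 1748 with array weights, and 11 to 152 when 1 array was left out. The replicate block gave 7 calls in all and 0 among the 10 genes. The values showed no pairing by number. Deviations from the group means correlated at -0.194, 0.039 and -0.185 for equal numbers, and control 1 correlated best with mutant 3, at 0.207. Within each group of 3 the deviations sum to 0, so these correlations depend on each other and cannot exclude a shared litter or batch. Myh11 lay above 0 with repeated quantile normalization (0.0092), median centring (0.00022), cyclic loess (3.71e-06) and array weights (0.028), and from -0.026 to 0.044 when 1 array was left out. The other 9 genes kept their direction in all 14 fits. The median difference over the 10 genes ran from 0.016 to 0.065 when 1 array was left out. With 3 arrays per group, differences smaller than the intervals given could be missed, and so could larger ones. Without array weights, Actg2 at 0.16 and Chrm3 at 0.37 did not pass although their intervals left out 0 (limma adjusted p = 0.326 and 0.121).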
